A study of Mus musculus with 16 samples.

Results

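The 28 genes described here encode 19 enzymes of cholesterol synthesis, 6 regulators and carriers of the SREBP system, and 3 genes of sterol efflux and lipoprotein uptake. They were chosen by name, as the count rows whose Ensembl gene ID maps to a list of symbols. The rule uses no measured value, but the list was drawn up with earlier results of these data known. Each symbol mapped to 1 row, so the list holds 28 of 55335 rows in the libraries with an age and 28 of 54532 rows in the libraries without one. The study measured RNA by sequencing in 16 libraries of mouse CD4 and CD8 double-positive (DP) thymocytes, the sorted thymic cells that rearrange and test the T-cell receptor. METTL3 is the enzyme subunit that places methyl groups on adenosines in mRNA, and the study set its knockout (KO) beside ageing of the thymus. The libraries with an age were 4 from old wild-type (WT) mice, 3 from young METTL3 KO mice and 3 from young WT mice. A separate set held 3 METTL3 KO and 3 WT libraries with no age on the label. The labels give neither ages in weeks, nor the strain, nor the promoter or Cre line behind the knockout, nor the deleted part of the gene.

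Cells make cholesterol from acetyl-CoA through mevalonate, isoprenoids, squalene and lanosterol. The transcription factor SREBP-2, encoded by Srebf2, switches on most of these enzymes when sterols are low, while SREBP-1, encoded by Srebf1, acts mainly on fatty acid synthesis. SCAP escorts both precursors from the endoplasmic reticulum to the Golgi for cleavage, and the INSIG proteins hold SCAP back when sterols are high. LXR receptors sense oxysterols and switch on the efflux pumps Abca1 and Abcg1 and the ubiquitin ligase Mylip. Dividing lymphocytes need sterol for new membrane, and the isoprenoid intermediates also modify proteins such as small GTPases.

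SREBPs bind sterol regulatory elements in target promoters together with NF-Y, which binds the CCAAT box, and SP1, which binds GC boxes. Promoters were looked up in RefSeq (GRCm38.p6), where 23 of the 28 genes had an entry and Fdft1, Sqle, Stard4, Fdps and Abcg1 did not. The 5 stretches here are shown to set side by side the upstream sequence of genes that fell, rose or did not pass the test in the KO libraries without an age. Hmgcs1 is shown as an enzyme that fell, Srebf2 and Insig1 as regulators that fell, Mvd as an enzyme that rose, and Mvk as one that did not pass. They are chr13:119690101-119690350 (+ strand), chr15:82147019-82147180 (+ strand), chr5:28071162-28071362 (+ strand), chr8:122443423-122443672 (- strand) and chr5:114444019-114444268 (+ strand), and each ends before the first annotated start of its gene. Capitals mark CCAAT and GGGCGG on either strand, and TCACNCCAC in Hmgcs1.
Hmgcs1: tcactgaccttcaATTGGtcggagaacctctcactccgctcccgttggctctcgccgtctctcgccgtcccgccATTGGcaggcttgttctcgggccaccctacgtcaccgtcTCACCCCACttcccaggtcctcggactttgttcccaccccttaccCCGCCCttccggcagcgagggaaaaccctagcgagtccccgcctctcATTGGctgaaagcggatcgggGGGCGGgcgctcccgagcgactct
Srebf2: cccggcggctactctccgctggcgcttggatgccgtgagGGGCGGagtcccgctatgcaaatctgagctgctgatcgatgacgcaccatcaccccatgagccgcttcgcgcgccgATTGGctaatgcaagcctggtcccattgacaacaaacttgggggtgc
Insig1: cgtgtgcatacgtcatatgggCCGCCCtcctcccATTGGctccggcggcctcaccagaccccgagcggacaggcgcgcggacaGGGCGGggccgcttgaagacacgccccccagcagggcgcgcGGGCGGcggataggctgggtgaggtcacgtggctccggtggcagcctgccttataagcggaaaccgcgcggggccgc
Mvd: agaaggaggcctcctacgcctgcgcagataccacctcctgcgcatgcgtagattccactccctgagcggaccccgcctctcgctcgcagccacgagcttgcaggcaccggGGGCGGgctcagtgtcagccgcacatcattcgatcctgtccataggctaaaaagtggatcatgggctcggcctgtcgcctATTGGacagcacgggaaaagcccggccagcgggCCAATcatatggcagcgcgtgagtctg
Mvk: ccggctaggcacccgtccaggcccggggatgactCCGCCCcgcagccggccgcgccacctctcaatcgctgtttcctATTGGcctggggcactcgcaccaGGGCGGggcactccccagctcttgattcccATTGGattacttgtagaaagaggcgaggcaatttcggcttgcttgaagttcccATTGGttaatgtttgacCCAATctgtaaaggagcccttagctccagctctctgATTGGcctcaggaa

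Over the 250 bases before the RefSeq start, on both strands and allowing overlaps, CCAAT was found in 20 of the 23 genes (87.0%). It was found in 33.8% of the 32851 promoters in the table and in 40.0% of the 10785 tested genes with an entry. GGGCGG was found in 22 of 23 genes (95.7%), against 32.7% of the promoters and 60.1% of the tested genes. The core of the sterol regulatory element with 1 free base, TCACNCCAC, was in Hmgcs1 alone of the 23, and in 1.05% of all promoters. CCAAT stood upstream of 3 of 3 genes that rose and 10 of 11 that fell in the KO libraries without an age, and of 7 of 9 that did not pass, so its presence did not separate them. A match to letters is a description and not a measured binding site.

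Counts assigned to genes ran from 9781368 to 10307780 per library in the set with an age. Without an age they ran from 10575795 to 13740694 in METTL3 KO and from 15927134 to 16167074 in WT libraries. Reads not aligned made up 50.5% to 52.2% of the set without an age and 0.577% to 0.826% of the set with one, so levels were compared within each set only. All 12 DP thymocyte marker genes had counts in every library, and they summed to 12757 to 16809 CPM in the set with an age. The targeted gene Mettl3 had 626, 653 and 647 counts in libraries labelled young METTL3 KO and 678, 656 and 591 in young WT libraries (log2 difference -0.0022 ± 0.08, adjusted p = 1). The whole-gene count thus did not differ between these groups beyond their spread, so the KO ones are called the libraries labelled young METTL3 KO below. Without an age, Mettl3 had 394, 441 and 357 counts in METTL3 KO and 835, 742 and 692 in WT libraries, a log2 difference of -0.58 ± 0.18 (adjusted p = 0.0189). In that comparison 24% of all genes tested fell. Set against each other by the interaction test in edgeR, the Mettl3 differences of the 2 sets were not unequal past the threshold (-0.41 ± 0.19, adjusted p = 0.106).

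Values below are TMM-scaled counts over library size (CPM), one per library in replicate order, and differences are log2 with their standard error. Per kilobase of exon, Lbr was the most abundant of the 28 transcripts in young WT libraries at 163 ± 4.74 CPM per kb (SD, n = 3). Srebf2 followed at 38.3 ± 2.53, Srebf1 at 23.1 ± 2.53, Abcg1 at 21.9 ± 4.19 and Mylip at 18.2 ± 0.443 CPM per kb. Hmgcs1, the synthase that forms HMG-CoA, stood at 8.97 ± 0.895, Idi1 at 5.96 ± 0.216 and Sqle at 3.81 ± 0.275 CPM per kb. Lss stood at 1.17 ± 0.113, Hsd17b7 at 1.10 ± 0.134 and Fdps lowest at 0.197 ± 0.0254 CPM per kb. The regulators and the efflux pump Abcg1 were thus above most of the enzymes per length. Srebf1 and Abcg1 differed by less than the spread of either. The length used joins all annotated exons of a gene. It was 10787 bases for Lss and 4403 for Tm7sf2, whose longest coding transcripts have 4667 and 1498 bases. Ranks per kilobase thus depend on the annotation. Fdps shares 1124 exonic bases with a same-strand gene and its few counts are uncertain. Fdft1 overlaps Ctsb by 774 exonic bases, Lbr overlaps Dnah14 by 440 and Scap overlaps an unnamed transcript by 985, all on the opposite strand. Tm7sf2 shares 532 exonic bases with Vps51 on its own strand, and the strand setting of the counting is not given in the sources used here.

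**Figure D1:**
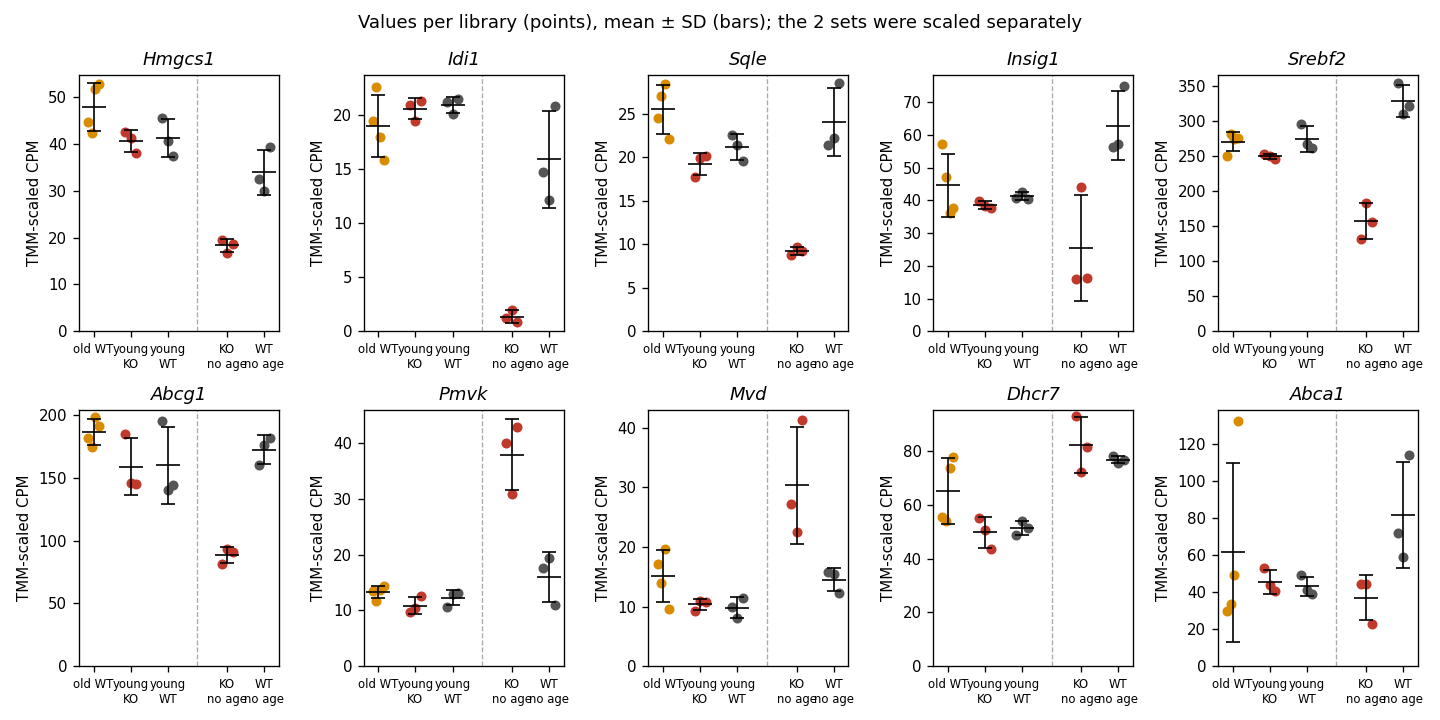
Values of 10 genes in each library. The vertical axis is TMM-scaled CPM from 0, points are libraries, bars are the mean and SD, and the dashed line parts the 2 sets, which were scaled separately. In the set without an age Idi1 lay between 0.831 and 2.01 CPM in METTL3 KO libraries, below every WT library, while Pmvk and Mvd lay above every WT library.

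In the set without an age, METTL3 KO against WT, the sterol genes did not move as one. Of 28 genes tested, 14 fell and 3 rose, against a background in which 24% of the 16432 genes tested fell and 29.9% rose. The 14 that fell included the isoprenoid isomerase Idi1, the squalene and lanosterol enzymes Sqle and Cyp51, the regulators Srebf2, Insig1 and Insig2, and both efflux pumps. The 3 that rose were Pmvk, Mvd and Tm7sf2, and of these Pmvk alone also passed with an offset for GC content and length, given below. The median log2 difference was -0.57 over the 28 genes, with 11 above 0, and 0.08 over all genes tested, with 52.9% above 0. It was -0.0015 over the 19 enzymes, -0.97 over the 6 regulators and carriers and -0.96 over the 3 efflux and uptake genes. The enzyme median moved with the processing, to -0.41 with the offset and to -0.29 without KO replicate 3, while the regulators stood at -0.71 with the offset and at -0.99 without that library. Genes above 0 numbered 5 of 28 with the offset and 6 without the filter on low counts. The groups did not overlap, with KO lower, for 15 of 28 genes (53.6%), against 29.5% of all genes tested, and with KO higher for 6 (21.4%), against 34.3%.

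The early steps to the isoprenoid units went both ways. Hmgcs1, which condenses acetyl units into HMG-CoA, had 19.6, 16.7 and 18.7 CPM in METTL3 KO and 32.4, 29.97 and 39.3 CPM in WT libraries. All KO libraries were low and the groups did not overlap (-0.89 ± 0.19, adjusted p = 0.00229). Pmvk, the second kinase of the mevalonate arm, had 40.1, 30.8 and 42.9 CPM in METTL3 KO and 17.6, 19.5 and 10.9 CPM in WT libraries. Every KO library stood above every WT library, and Pmvk rose (1.25 ± 0.24, adjusted p = 0.00134). Mvd, which decarboxylates mevalonate diphosphate to isopentenyl diphosphate, had 27.3, 22.4 and 41.3 CPM in METTL3 KO and 15.9, 15.5 and 12.2 CPM in WT libraries. It also rose without overlap, with KO replicate 3 highest (1.06 ± 0.25, adjusted p = 0.00389). Idi1, which turns isopentenyl into dimethylallyl diphosphate, had 1.24, 2.01 and 0.831 CPM in METTL3 KO and 14.7, 12.2 and 20.8 CPM in WT libraries. It fell the most of the 28 genes, with the groups far apart (-3.55 ± 0.37, adjusted p = 7.8e-05). Consecutive enzymes of the route thus changed in opposite directions, Pmvk and Mvd up and Idi1 down, although the offset reduced Mvd to 0.30 and ended its call. Mvk, the first mevalonate kinase, had 15.5, 15.7 and 15.6 CPM in METTL3 KO and 12.9, 13.2 and 10.8 CPM in WT libraries and did not pass (0.34 ± 0.21, adjusted p = 0.184). Acat2, the cytosolic thiolase that makes acetoacetyl-CoA, stood at 0.10 ± 0.21 and Fdps at 0.68 ± 0.44, neither past the threshold.

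At squalene, Sqle, the monooxygenase that adds the first oxygen and is a rate-limiting step, had 8.75, 9.72 and 9.22 CPM in METTL3 KO and 21.4, 22.2 and 28.5 CPM in WT libraries. It fell with tight KO values (-1.38 ± 0.21, adjusted p = 4.1e-04). Fdft1, the squalene synthase, averaged 23.8 ± 0.817 CPM in METTL3 KO and 23.2 ± 1.57 CPM in WT libraries (SD, n = 3 each), and the cyclase Lss stood at -0.55 ± 0.24. Neither of them passed (adjusted p = 0.872 and 0.0666).

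After lanosterol, 4 of the 9 enzymes fell, 1 rose and 4 did not pass, where 24% of all genes tested fell and 29.9% rose. Cyp51, the lanosterol demethylase, had 12.6, 7.35 and 7.33 CPM in METTL3 KO and 22.01, 14.7 and 25.3 CPM in WT libraries (-1.18 ± 0.29, adjusted p = 0.00519). Lbr and Tm7sf2 encode the 2 sterol C14 reductases, and Lbr is also a receptor of the nuclear lamina. Lbr had 213.5, 287.96 and 121.3 CPM in METTL3 KO and 662.05, 636.95 and 633.9 CPM in WT libraries and fell (-1.63 ± 0.26, adjusted p = 4.4e-04). Tm7sf2 had 26.5, 18.1 and 21.99 CPM in METTL3 KO and 13.2, 11.5 and 10.2 CPM in WT libraries and rose (0.94 ± 0.22, adjusted p = 0.0044). The enzymes of the same reaction thus changed in opposite directions, although the offset ended the Tm7sf2 call. Per kilobase, Lbr stood at 43.6 ± 17.5 and Tm7sf2 at 5.04 ± 0.953 CPM per kb in METTL3 KO, against 135 ± 3.24 and 2.63 ± 0.346 CPM per kb in WT libraries (SD, n = 3 each). Hsd17b7, the ketoreductase of C4 demethylation, had 1.73, 3.06 and 1.89 CPM in METTL3 KO and 5.88, 6.74 and 7.23 CPM in WT libraries (-1.57 ± 0.35, adjusted p = 0.00305). Its partners in that reaction did not pass, Msmo1 at -0.57 ± 0.27 and Nsdhl at 0.09 ± 0.25. Sc5d, the C5 desaturase, had 17.2, 20.5 and 12.7 CPM in METTL3 KO and 39.6, 36.3 and 45.1 CPM in WT libraries, without overlap (-1.27 ± 0.21, adjusted p = 6.2e-04). Ebp, the sterol isomerase before it, and Dhcr7, the last reductase, did not pass, at -0.0015 ± 0.21 and 0.10 ± 0.15. Dhcr7 had 92.98, 72.1 and 81.4 CPM in METTL3 KO and 78.2, 75.6 and 76.6 CPM in WT libraries, with overlap.

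Of the 6 regulators and carriers, Srebf2, Insig1, Insig2 and Stard4 fell (66.7%), against 24% of all genes tested. Srebf1 and Scap did not pass. Srebf2 had 132.6, 184.03 and 155.98 CPM in METTL3 KO and 355.3, 310.3 and 322.04 CPM in WT libraries. All KO libraries were below all WT libraries (-1.06 ± 0.16, adjusted p = 3.8e-04). Srebf1 had 247.6, 272.98 and 259.7 CPM in METTL3 KO and 216.6, 239.9 and 236.8 CPM in WT libraries, without overlap but not past the threshold (0.17 ± 0.14, adjusted p = 0.321). Scap had 117.2, 105.2 and 133.8 CPM in METTL3 KO and 99.99, 99.6 and 95.3 CPM in WT libraries (0.27 ± 0.15, adjusted p = 0.143). Insig1, itself a target of SREBP-2, had 16.1, 44.04 and 16.2 CPM in METTL3 KO and 56.3, 57.1 and 75.1 CPM in WT libraries. KO replicate 2 stood apart from the other KO libraries but still below every WT library (-1.31 ± 0.34, adjusted p = 0.00746). Insig2, the paralog that is less dependent on SREBP, had 17.1, 12.96 and 13.7 CPM in METTL3 KO and 27.1, 29.6 and 23.9 CPM in WT libraries (-0.88 ± 0.20, adjusted p = 0.00353). Stard4, a soluble carrier that moves cholesterol between membranes, had 10.8, 21.4 and 10.2 CPM in METTL3 KO and 28.1, 29.7 and 39.7 CPM in WT libraries, again with KO replicate 2 highest of its group (-1.20 ± 0.29, adjusted p = 0.0046). That library was the highest of the 3 KO libraries for 17 of the 28 genes. WT replicate 3 was the highest of its group for 15 of 28, and such shares over all genes were not counted. Without KO replicate 2, 16 sterol genes were called lower and 3 higher, against 4544 and 5065 of the 17392 genes tested. Without WT replicate 3 these were 14 and 3, against 3441 and 4305 of 18096.

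All 3 efflux and uptake genes, which respond to LXR, fell in METTL3 KO against WT, where 24% of all genes tested fell. Abca1, which exports cholesterol to lipid-poor apolipoprotein, had 44.2, 44.4 and 22.8 CPM in METTL3 KO and 72.1, 59.1 and 113.97 CPM in WT libraries (-1.14 ± 0.29, adjusted p = 0.00626). Abcg1, which exports it to lipoprotein particles, had 81.3, 93.1 and 90.8 CPM in METTL3 KO and 159.8, 176.1 and 181.3 CPM in WT libraries (-0.96 ± 0.14, adjusted p = 3.6e-04). Both pumps were lower in every KO library than in any WT library. Mylip, the ligase that sends lipoprotein receptors to degradation, had 53.5, 81.7 and 50.5 CPM in METTL3 KO and 83.1, 107.8 and 84.5 CPM in WT libraries (-0.57 ± 0.21, adjusted p = 0.035). The Mylip call was lost with library size as the only scaling (-0.46, adjusted p = 0.110).

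**Figure D2:**
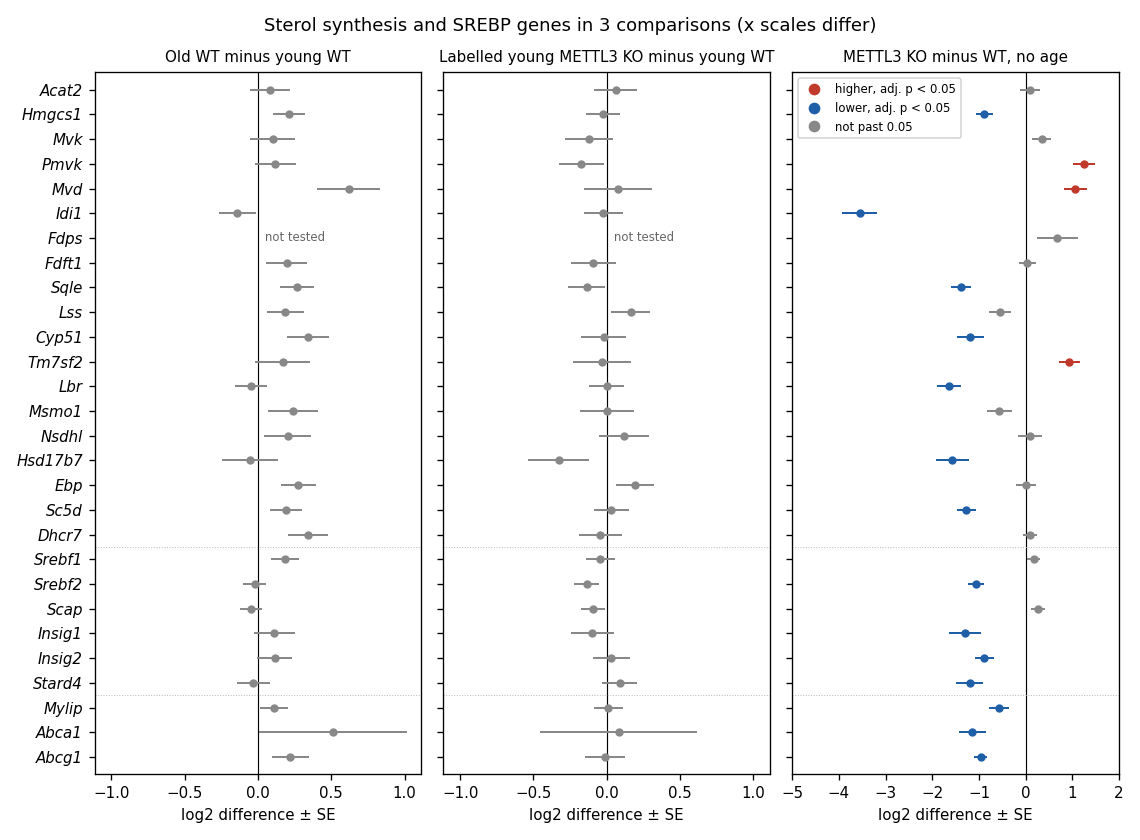
Log2 differences with standard errors for the 28 genes, in pathway order from top to bottom, with dotted lines before the regulators and the efflux and uptake genes. Panels are old WT minus young WT, libraries labelled young METTL3 KO minus young WT, and METTL3 KO minus WT without an age, on x scales that differ. Of the coloured genes, past an adjusted p of 0.05, 14 are lower and 3 higher in the right panel, and there are 0 in the other panels.

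RNA of other gene lists also differed in this comparison, in which 24% of all genes tested were lower and 29.9% higher. Of the DP thymocyte genes, 7 of 12 were lower in METTL3 KO, and their summed level was 8536 to 10966 CPM in METTL3 KO and 16144 to 17743 CPM in WT libraries. Of the cycling genes, 11 of 16 were lower, with 2201 to 2628 CPM in METTL3 KO and 4006 to 4250 CPM in WT libraries. Of the B-cell genes, 9 of 10 were higher, with 719 to 1160 CPM in METTL3 KO and 530 to 630 CPM in WT libraries. Of 9 dendritic-cell genes tested 6 were higher and 1, Ccr9, was lower. The summed level of the list was 606 to 664 CPM in METTL3 KO and 1217 to 1672 CPM in WT libraries, most of it Ccr9. Ccr9 averaged 524 ± 59.0 CPM in METTL3 KO and 1385 ± 233 CPM in WT libraries (SD, n = 3 each). The lower sum thus followed this gene and does not describe the rest of the list. The shares called higher were nearer to that of all genes for early double-negative genes, 3 of 7 (42.9%), and for myeloid genes, 4 of 10 (40.0%). Still, 7 of 7 and 10 of 10 lay above 0, against 52.9% of all genes. Their medians were 1.83 and 0.87 on the log2 scale, against 0.08 over all genes. Early double-negative genes summed to 40.1 to 51.2 CPM in METTL3 KO and 18.8 to 20.7 CPM in WT libraries. Myeloid genes summed to 39.4 to 49.2 CPM in METTL3 KO and 18.8 to 27.5 CPM in WT libraries. The part of these in the sterol gene differences was not tested. In bulk RNA, fewer cells of a type and less RNA per cell cannot be told apart.

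The differences in this set also ran with base composition. Over the 12971 protein-coding genes the log2 difference and the GC content of the longest coding transcript had a Spearman correlation of 0.36, and over the 28 sterol genes one of 0.77. These points share the same 6 libraries, and the values are descriptions. Coding genes were split by GC content into 5 bins of like size. In the lowest bin lay 6 of the 28 genes and 6 of 6 fell, among them Idi1, Lbr and Hmgcs1, where 48.0% of all coding genes of that bin fell. In the highest bin lay 7 of the 28, of which Pmvk, Mvd and Tm7sf2 rose (42.9%) and Srebf2 alone fell, where 44.4% of all coding genes of that bin rose and 7.98% fell. The share of sterol genes that rose was thus near that of the bin. All coding genes had a median log2 difference of -0.56 in the lowest bin and of 0.54 in the highest. Length of the 3′ UTR ran the other way, with a Spearman correlation of -0.30 over all coding genes and -0.69 over the 28. A per-library offset for GC and for length of the transcript, added after this relation was seen, left 14 genes lower and 1 higher. All 15 had the same call before. Over all 16419 genes tested, the offset left 4303 lower and 4287 higher. With it Idi1 stood at -3.12, Sqle at -1.42, Srebf2 at -1.30, Insig1 at -1.28 and Abcg1 at -0.85 on the log2 scale, all still past the threshold. Pmvk stood at 0.50 (adjusted p = 0.0339), while Mvd at 0.30 and Tm7sf2 at 0.29 were no longer called (adjusted p = 0.176 and 0.25). Hmgcs1 moved to -0.44 and Sc5d to -0.68, both still past the threshold.

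**Figure D3:**
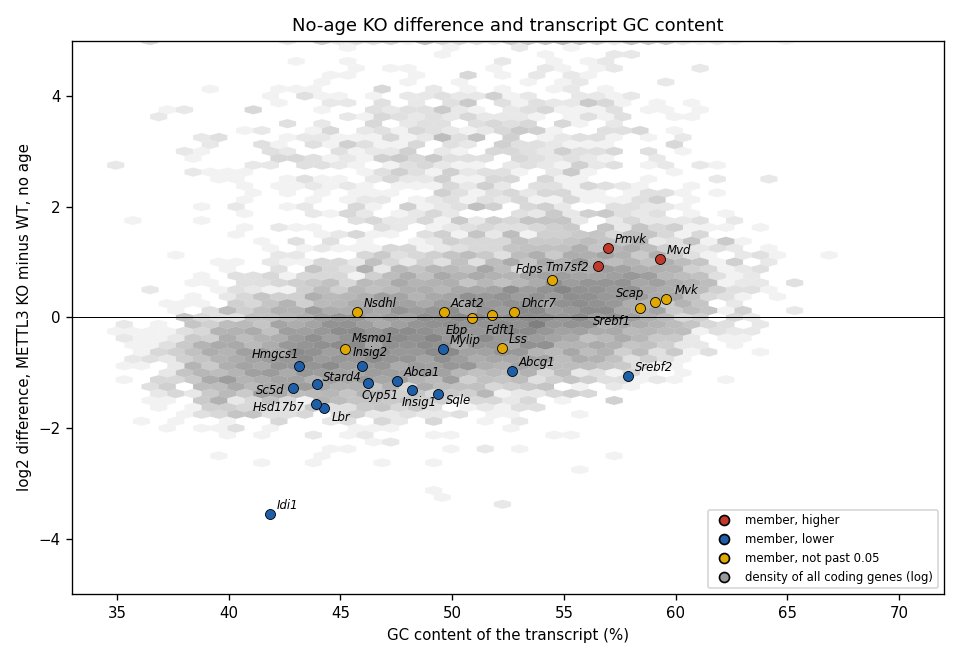
Log2 difference of METTL3 KO minus WT without an age (vertical axis, values past 5 drawn at the edge) against the GC content of the transcript in percent. Grey cells give the density of all coding genes on a log scale and coloured points the 28 genes, of which Pmvk, Mvd and Tm7sf2 stand at the upper right and Srebf2 stands low among genes of like GC content.

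**Figure D4:**
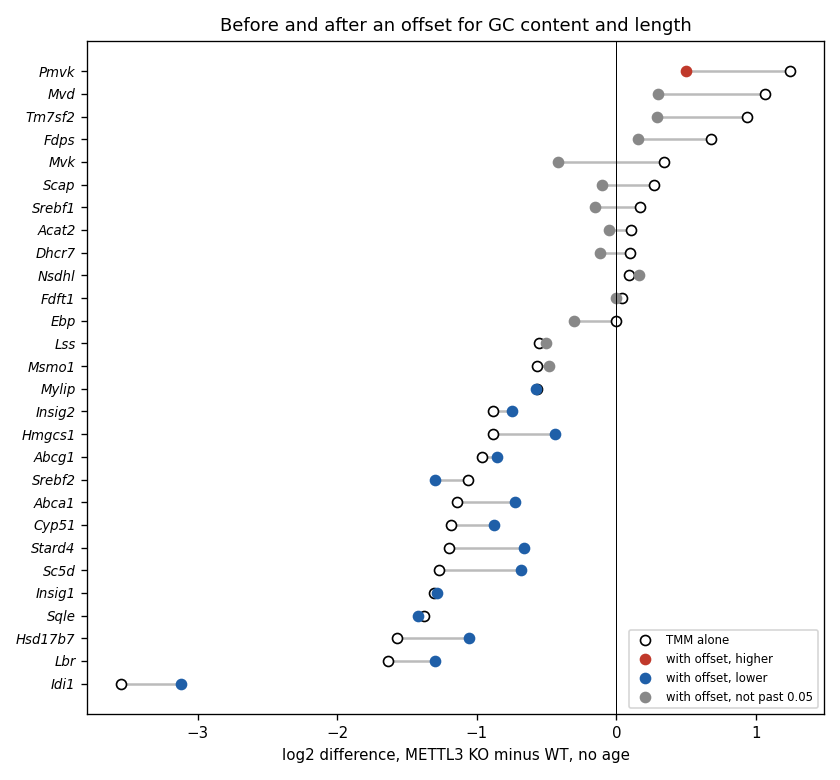
Log2 difference of METTL3 KO minus WT without an age for each of the 28 genes, ordered by the value with TMM scaling alone (open points), and with the offset for GC content and length (filled points). The 14 genes in blue stayed lower, Pmvk alone stayed higher, and grey filled points did not pass.

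Between old and young WT libraries the sterol genes differed by small amounts and none passed the test. Of 27 genes tested, 0 were called, against 0.253% of the 14228 genes tested, and Fdps was too low to be tested. DESeq2 also called 0 of them, and 5 of 27 (18.5%) had an unadjusted p under 0.05 in edgeR, against 12.1% of all genes. The log2 difference was above 0 for 21 of 27 genes, against 51.1% of all genes, with a median of 0.18 against 0.01 over all genes. The 18 enzymes tested had a median of 0.19, with 15 above 0, and the 6 regulators and carriers one of 0.04, with 3 above 0. Groups did not overlap, with old WT higher, for Cyp51 and Dhcr7 alone, 2 of 27 (7.41%), against 5.65% of all genes, and with old WT lower for 0, against 4.13%.

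Mvd had 17.1, 13.9, 19.7 and 9.66 CPM in old WT and 9.93, 8.02 and 11.5 CPM in young WT libraries, the smallest adjusted p of the list (0.62 ± 0.22, adjusted p = 0.322). Old replicate 4 lay within the young range. Dhcr7 had 55.4, 54.02, 73.6 and 77.9 CPM in old WT and 48.8, 53.9 and 51.6 CPM in young WT libraries (0.34 ± 0.14, adjusted p = 0.368). Cyp51 had 23.7, 24.7, 32.9 and 21.4 CPM in old WT and 20.7, 19.3 and 20.8 CPM in young WT libraries (0.34 ± 0.14, adjusted p = 0.375). For Dhcr7 and Cyp51 the old libraries were all above the young ones, by little at the nearest pair. Sqle had 24.5, 26.96, 28.4 and 22.02 CPM in old WT and 22.6, 21.3 and 19.5 CPM in young WT libraries (0.27 ± 0.12), and Ebp stood at 0.28 ± 0.12. Hmgcs1 had 44.6, 42.3, 51.6 and 52.6 CPM in old WT and 45.6, 40.7 and 37.4 CPM in young WT libraries (0.21 ± 0.11). Idi1 went below 0, with 19.4, 22.6, 17.9 and 15.8 CPM in old WT and 21.2, 20.04 and 21.5 CPM in young WT libraries (-0.14 ± 0.13). None of these differences passed the adjusted threshold.

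None of the regulators passed with age. Srebf2 had 250.7, 281.6, 275.3 and 275.6 CPM in old WT and 295.9, 267.2 and 262.2 CPM in young WT libraries (-0.02 ± 0.08). Srebf1 had 151.2, 134.1, 157.9 and 147.3 CPM in old WT and 146.4, 122.96 and 120.7 CPM in young WT libraries (0.18 ± 0.09). Scap stood at -0.05 ± 0.08, Insig1 at 0.11 ± 0.14 and Insig2 at 0.11 ± 0.12, and for all of them the groups overlapped. Abca1 had 30.1, 33.8, 49.5 and 132.7 CPM in old WT and 49.2, 41.4 and 39.1 CPM in young WT libraries. The difference of 0.51 ± 0.50 rested on old replicate 4, without which it was -0.21. Abcg1 had 181.7, 174.8, 198.4 and 190.96 CPM in old WT and 195.2, 140.6 and 144.2 CPM in young WT libraries (0.22 ± 0.13), and Mylip stood at 0.11 ± 0.09.

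Old WT replicate 3 was the highest of its group for 11 of 28 genes and 8 of 19 enzymes, and it also held the most RNA of other cells. Myeloid genes summed to 271 CPM in it and to 38.2 to 41.6 CPM in the other old libraries, against 31.0 to 34.0 CPM in young WT libraries. B-cell genes summed to 1745 CPM in it and to 478 to 926 CPM in the others, against 438 to 492 CPM in young WT libraries. Old replicate 4 was the lowest of its group for 11 of 28 genes and 10 of 19 enzymes. The shares of all genes for which a library was highest or lowest were not counted. Cycling genes were also lowest in old replicate 4, at 3292 CPM, with 4955 to 5912 CPM in the other old libraries and 5439 to 5944 CPM in young WT libraries. Their part in the sterol gene values was not tested. Without old replicate 3 the median over the sterol genes was 0.14, and without old replicate 1 it was 0.12, with 0 genes called in either.

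Between the libraries labelled young METTL3 KO and young WT, no sterol gene passed the test and most intervals were narrow. Of 27 genes tested 0 were called, against a background of 0% of the 14228 genes tested, and DESeq2 called 0 as well. None of the 27 had an unadjusted p under 0.05 in edgeR, against 0.618% of all genes. The median log2 difference was -0.02 with 10 of 27 genes above 0, against 49.7% of all genes. The 95% interval lay within 1 log2 unit of 0 for 26 of 27 genes, the exception being Abca1 with -1.16 to 1.32, and within 0.5 for 23. These intervals and p-values take their spread from all 10 libraries with an age, old WT included, and not from the compared groups alone. Abca1 had 52.9, 43.7 and 40.5 CPM in libraries labelled young METTL3 KO and 49.2, 41.4 and 39.1 CPM in young WT libraries, but 132.7 CPM in old replicate 4. A fit of the 2 groups alone also called 0 sterol genes, with a median of -0.02. Groups did not overlap, with KO lower, for 4 of 27 genes (14.8%), against 4.71% of all genes. These were Mvk, Srebf2, Scap and Insig1, and no gene was without overlap and higher, against 4.55% of all genes.

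Srebf2 had 252.9, 250.5 and 246.5 CPM in libraries labelled young METTL3 KO and 295.9, 267.2 and 262.2 CPM in young WT libraries (-0.14 ± 0.09). Insig1 had 39.9, 38.3 and 37.6 CPM in libraries labelled young METTL3 KO and 40.9, 42.6 and 40.5 CPM in young WT libraries (-0.10 ± 0.15). Scap had 87.2, 88.8 and 85.9 CPM in libraries labelled young METTL3 KO and 95.8, 94.6 and 89.7 CPM in young WT libraries (-0.10 ± 0.08). These 3 regulators lay lower in every library labelled KO than in any WT library, the fitted differences were no further from 0 than -0.14, and the adjusted p was 1 for each. Hsd17b7 had the largest difference, with 4.27, 4.94 and 4.18 CPM in libraries labelled young METTL3 KO and 4.87, 6.21 and 5.74 CPM in young WT libraries (-0.33 ± 0.21). Idi1 had 20.9, 19.5 and 21.3 CPM in libraries labelled young METTL3 KO and 21.2, 20.04 and 21.5 CPM in young WT libraries (-0.02 ± 0.13). Hmgcs1 had 42.5, 41.2 and 37.99 CPM in libraries labelled young METTL3 KO and 45.6, 40.7 and 37.4 CPM in young WT libraries (-0.02 ± 0.12), and Sqle stood at -0.14 ± 0.13. For Idi1, Hmgcs1 and Sqle the groups overlapped. Srebf1 stood at -0.04 ± 0.10, Insig2 at 0.03 ± 0.13, Mylip at 0.01 ± 0.10, Abcg1 at -0.01 ± 0.13 and Abca1 at 0.08 ± 0.54. Ebp at 0.19 ± 0.13 and Lss at 0.16 ± 0.14 were the highest of the list. This comparison and the one with age share the young WT libraries.

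The METTL3 KO differences of the 2 sets were then set against each other in 1 fit of 12 libraries. The KO difference without an age was lower than that of the libraries labelled young METTL3 KO for 12 of 28 genes and higher for 5, against 17.7% and 19.2% of the 16557 genes tested (36.9% in either direction). It was above 0 for 11 of 28, against 56.1% of all genes. Idi1 differed the most (-3.36 ± 0.35, adjusted p = 2.1e-05), followed in that direction by Lbr (-1.46 ± 0.30) and Sc5d (-1.13 ± 0.22). Srebf2 (-0.75 ± 0.17, adjusted p = 0.00288), Abcg1 (-0.78 ± 0.19) and Sqle (-1.07 ± 0.21) passed too. Pmvk (1.58 ± 0.30), Mvd (1.15 ± 0.30), Tm7sf2 (1.13 ± 0.28), Mvk (0.63 ± 0.23) and Scap (0.54 ± 0.14) were higher. With the offset for GC content and length Pmvk alone of these stayed called (0.88, adjusted p = 0.00764), Mvk turned to -0.17 and Scap to -0.0043. The enzymes of the mevalonate arm thus stood on either side of 0 in this contrast. In libraries labelled young METTL3 KO, Pmvk (-0.17), Mvd (0.08) and Idi1 (-0.02) were near 0. The contrast therefore largely repeats the difference in the same 6 libraries without an age and is not a second measurement. Insig1 did not pass (-1.03 ± 0.41, adjusted p = 0.0587), but did with scaling within each set (-1.17, adjusted p = 0.0336), under which Mvk was no longer called (0.50, adjusted p = 0.0893). Over all genes this contrast had a median of 0.14. With the offset for GC content and length 8 of the 28 genes were lower and 1 higher. Over all 16557 genes tested, that offset left 2867 lower and 2654 higher. The share of aligned reads, the depth and the counts outside genes differ between the sets, and cannot be told apart from age or mouse line.

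Genes of neighbouring pathways were counted in the same comparison, METTL3 KO against WT without an age, in which 24% of all genes tested fell and 29.9% rose. Of 18 fatty acid genes tested, 9 fell and 2 rose (11.1%), with a median of -0.49. Scd2, a stearoyl-CoA desaturase, averaged 192 ± 10.6 CPM in METTL3 KO and 618 ± 63.1 CPM in WT libraries (-1.68 ± 0.15, adjusted p = 5.3e-05). Fads2, a desaturase of polyunsaturated fatty acids, averaged 2.24 ± 0.174 CPM in METTL3 KO and 13.8 ± 0.389 CPM in WT libraries (-2.62 ± 0.27, adjusted p = 7.1e-05). Acly, which makes cytosolic acetyl-CoA for both pathways, averaged 143 ± 11.03 CPM in METTL3 KO and 341 ± 6.88 CPM in WT libraries (-1.25 ± 0.14, adjusted p = 1.0e-04). The elongase Elovl1 went the other way (0.88 ± 0.17, adjusted p = 0.00149).

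Of 31 genes of sterol transport, storage and SREBP processing, 12 fell (38.7%) and 5 rose (16.1%), with a median of -0.19. Rnf139, an endoplasmic reticulum ubiquitin ligase, averaged 10.9 ± 3.03 CPM in METTL3 KO and 46.7 ± 8.82 CPM in WT libraries (-2.10 ± 0.24, adjusted p = 1.1e-04). Soat1, which esterifies cholesterol for storage, averaged 121 ± 11.6 CPM in METTL3 KO and 262 ± 21.97 CPM in WT libraries (-1.12 ± 0.15, adjusted p = 2.0e-04). Apoe, the apolipoprotein that macrophages also make in quantity, rose, averaging 150.1 ± 35.6 CPM in METTL3 KO and 37.8 ± 10.9 CPM in WT libraries (1.99 ± 0.25, adjusted p = 1.5e-04). Of 13 genes that use mevalonate products for other ends, 4 fell (30.8%) and 3 rose (23.1%), shares near those of all genes. Pggt1b, the beta subunit of geranylgeranyl transferase I, averaged 5.23 ± 1.00 CPM in METTL3 KO and 32.2 ± 3.74 CPM in WT libraries (-2.62 ± 0.23, adjusted p = 4.7e-05). Rabggta, a subunit of the Rab transferase, averaged 130.0 ± 14.3 CPM in METTL3 KO and 54.6 ± 2.69 CPM in WT libraries (1.25 ± 0.15, adjusted p = 1.4e-04). Nus1, which serves dolichol synthesis, averaged 32.1 ± 3.28 CPM in METTL3 KO and 64.8 ± 3.11 CPM in WT libraries (-1.01 ± 0.16, adjusted p = 4.7e-04).

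With age, none of these neighbouring genes passed. In old against young WT the smallest adjusted p among them belonged to Scd1 (2.98 ± 0.82, adjusted p = 0.243), which averaged 6.68 ± 7.15 CPM in old WT (SD, n = 4) and 0.827 ± 0.283 CPM in young WT libraries (SD, n = 3), with old replicate 3 highest. Gramd1b, a cholesterol transporter at membrane contacts, averaged 42.3 ± 10.2 CPM in old WT and 28.5 ± 2.64 CPM in young WT libraries (0.57 ± 0.17, adjusted p = 0.251). In the libraries labelled young METTL3 KO against young WT, 0 of the 17, 29 and 13 genes tested on these lists were called, and their medians lay between -0.10 and 0.01.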

How the data were processed

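RNA of sorted CD4 and CD8 double-positive thymocytes was sequenced in 16 mouse libraries, extracted with Trizol per the labels. The authors deposited 1 table of raw counts per gene and library. Alignment with HISAT2 2.0.5 to mm10 is named in the submitters' processing notes, and which program, annotation and strand option did the counting is not given in the sources used here. Summary rows that name no gene were left out of library sizes. Those without a feature made up 47.5% to 51.2% in the set with an age. Without an age they made up 11.8% to 15.0% in METTL3 KO and 7.23% to 7.60% in WT libraries, without overlap.

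Gene IDs were matched to symbols and positions in GENCODE M21 (mm10). Counts were tested in edgeR 4.0.16 (R 4.3.3) with expression filtering, TMM scaling and the robust quasi-likelihood F test, two-sided, with Benjamini-Hochberg adjustment over all genes tested and a threshold of 0.05. The 10 libraries with an age shared 1 fit, the 6 without an age had their own, and the interaction of the KO differences was fitted on 12 libraries over the genes of both sets. The procedure was also run on counts simulated from the same model with the fitted spread. That run cannot show errors where the real counts depart from the model. A 95% interval or a standard error is that of the log2 difference from this fit. DESeq2 1.42.0 and the other alternatives are given in the closing section. Nothing in the labels says that replicates came from separate animals, so the p-values rest on spread between libraries that may be technical. No pair of replicates agreed within sampling noise (chi-square per degree of freedom from 3.20 to 72.6).

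The members and all gene lists were chosen with earlier results of these data known. Named were the sterol genes called in a comparison and the 4 with the smallest p in each. Srebf1, Srebf2, Insig1, Insig2, Scap, Hmgcs1, Sqle, Abca1, Abcg1 and Mylip were named as well. All of these have values per library in some comparison, except Ebp and Lss, which are given by their fitted differences. Of each neighbouring list up to 3 genes with the smallest p per comparison, and called ones up to 6, could be named. Promoter letters were searched with Python 3.11.15 over 250 bases before each RefSeq start. GC content, transcript length and UTR length came from the longest protein-coding GENCODE transcript of each gene, and each library was then offset by lowess curves (span 0.3).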

Additional observations from a re-analysis of the deposited data

Results flagged for a closer look

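Within the 4 old WT libraries, 5 measures had 1 library far from the rest, with its gap to the nearest other library taken as a share of the whole range. Tm7sf2 was low in old replicate 4, at 9.57, 9.22, 9.56 and 6.86 CPM in replicate order (0.868). Old replicate 3 held the most summed RNA of mature single-positive genes (0.833), early double-negative genes (0.854), myeloid genes (0.985) and erythroid genes (0.882). Chance alone marks about 1 in 20 groups in this way. The screen covered each of the 28 sterol genes and the sum of each gene list. Tm7sf2 was the only 1 of the 28 genes marked, no more than chance would give. The marked lists all fall on the same library and are not separate events. Because old replicate 3 is also the highest old library for 11 of 28 sterol genes, the age medians are given without it in the report.

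The KO difference without an age differed from that of the libraries labelled young METTL3 KO, by the interaction test in edgeR, for 17 of the 28 genes. It was lower for Hmgcs1 (-0.69 on the log2 scale), Idi1 (-3.36), Sqle (-1.07), Cyp51 (-0.98), Lbr (-1.46), Hsd17b7 (-1.07), Sc5d (-1.13), Srebf2 (-0.75), Insig2 (-0.75), Stard4 (-1.11), Abca1 (-1.04) and Abcg1 (-0.78). It was higher for Mvk (0.63), Pmvk (1.58), Mvd (1.15), Tm7sf2 (1.13) and Scap (0.54), of which with the offset for GC content and length Pmvk alone stayed called and Mvk and Scap turned below 0. The set, its alignment and its depth cannot be told apart from the mice in this contrast.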

How the results depend on the processing

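In METTL3 KO without an age, 13 of the 14 falls, all but Mylip, passed under every alternative run, and 0 sterol genes were called for age or in the libraries labelled young METTL3 KO under any. The count of all genes called with age, 36, was 85 without a filter on low counts, 136 in DESeq2, 11 in a fit of old and young WT alone and 8 to 59 with a library left out. In the libraries labelled young METTL3 KO it was 1 without the filter. The age median over the sterol genes was 0.11 with the offset for GC content and length and 0.12 to 0.17 with a library left out. It was 0.0440 for the regulators alone, and for the libraries labelled young METTL3 KO -0.0697 for the regulators alone and -0.0393 to 0.0420 with a library left out.

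Without an age, the median was -0.46 with library size alone, -0.74 without the filter and -0.86 to -0.50 with a library left out. It was -0.0015 over enzymes (-0.41 with the offset, -0.20 without the filter, -0.29 to -0.0289 with a library left out), -0.97 over regulators (-0.71 with the offset) and -0.96 over efflux and uptake genes (-0.73 with the offset). The offset left 1 gene higher, and Srebf1 (-0.15) and Scap (-0.10) turned sign, as did Srebf1 without the filter (-0.0128). Mylip was not called without WT replicate 2 (-0.49) or KO replicate 1 (-0.50).

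Scaling within each set moved the interaction's median over all genes to 0.02, where it was 0.14. For the interaction the sterol median was -0.54 with library size alone, -0.74 without the filter, -0.37 with the offset, -0.61 with scaling within each set and -0.85 to -0.50 with a library left out. It was -0.0287 over enzymes (-0.27 with the offset, -0.28 without the filter, -0.43 to 0.0166 with a library left out, and -0.37 without young WT replicate 1), -0.75 over regulators and -0.78 over efflux and uptake genes. Genes higher numbered 3 without the filter, 1 with the offset, 4 with scaling within each set and 1 to 4 with a library left out. With the offset Mvk (-0.17), Srebf1 (-0.11) and Scap (-0.0043) turned sign. The cause of these shifts was not tested. The offset and the scaling within each set were chosen after seeing the data.

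With a library left out, age differences near 0 changed sign for Srebf2 (-0.0573 to 0.0318), Insig1 (-0.0366 to 0.20) and Abca1 (-0.21 to 0.73). In the libraries labelled young METTL3 KO they did for Hmgcs1 (-0.0893 to 0.0558), Srebf1 (-0.0949 to 0.0512), Insig2 (-0.0496 to 0.11), Mylip (-0.0288 to 0.0433), Abcg1 (-0.14 to 0.16, and 0.0021 with the offset) and Abca1 (-0.0398 to 0.18).

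Replicate numbers did not pair the libraries, since same-numbered ones had correlations of -0.23 to 0.09. With the replicate number as a block, 61 genes were called with age, 3 sterol genes were higher and 14 lower without an age, and 4 higher and 11 lower in the interaction. Its medians were 0.17, -0.02, -0.58 and -0.50 in the order age, labelled young METTL3 KO, KO without an age and interaction, and Abca1 with age was -0.20.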
